A study of Mus musculus with 8 samples.

Results

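A set of 10 genes that mark pigmented tissue of the eye was read in every library of an RNA sequencing comparison of mouse retina. The genes were Ttr, Best1, Mitf, Tyr, Tyrp1, Dct, Pmel, Mlana, Slc45a2 and Oca2, chosen by symbol as a measure of pigmented tissue carried over with the dissected retina, and they made up 10 of the 54532 genes in the count table. All 10 symbols were found, each once. The group labelled sIVs, after small intracellular vesicles, which are membrane vesicles from inside cells, had 4 libraries, and the control group, labelled PBS, had 4. Replicates carried the numbers 1, 3, 4 and 5 in each group, and library values are given below in that order. The labels gave the tissue as retina and no strain, coat colour, age, sex, dose, route or time. They did not say whether the libraries came from separate animals, so p-values reflect the spread between these libraries alone, and part of it may be technical.

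The retinal pigment epithelium is a single layer of melanin-filled cells behind the photoreceptors. It recycles the visual chromophore, takes up shed outer segments and secretes transthyretin, the carrier of retinol-binding protein that Ttr encodes. Melanin is made inside melanosomes by tyrosinase and its relatives, and the transcription factor MITF switches on these genes in pigment cells. Pigment cells also lie in the choroid, the ciliary body and the iris, none of which belongs to the neural retina.

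Each library held 13803958 to 16622259 counts. Rod genes were high in all 8: Sag, which encodes the arrestin of rods, stood between 4176 and 6770 CPM in sIVs retinas and between 3879 and 4634 CPM in PBS retinas. CPM are counts expressed per library total on a common scale, with the total adjusted by TMM factors. The sIVs 4 library stood apart from the rest by gene length: against the median of the other 7 libraries, its median log2 ratio was 0.55 among the shortest and -0.51 among the longest of 5 equal classes of tested genes, while the other libraries stayed between -0.12 and 0.09 in every class. Log2 differences of the pigment, epithelial, microglia and red blood cell genes that moved most with sIVs 4 are given below with and without it.

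**Figure D1:**
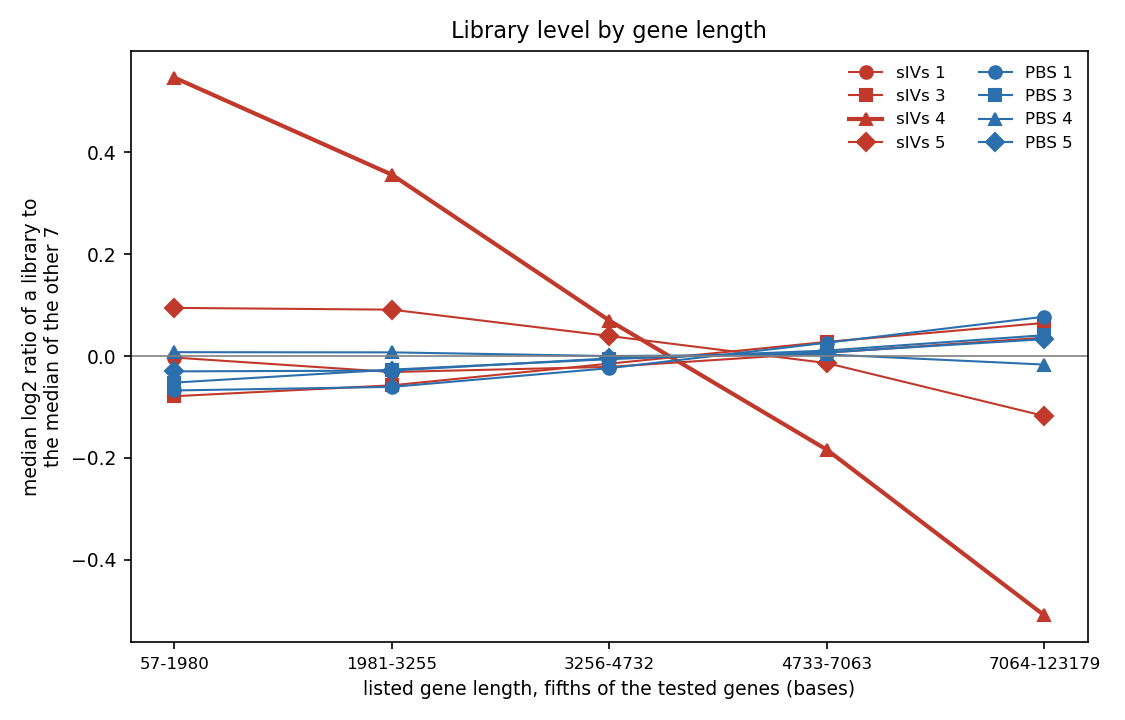
Median log2 ratio of each library to the median of the other 7 (vertical axis), in 5 equal classes of the 17004 tested genes by listed gene length in bases (horizontal axis), sIVs libraries in red and PBS libraries in blue. The sIVs 4 line runs from 0.55 in the shortest class to -0.51 in the longest, and the other 7 lines stay near 0.

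The sIVs and PBS libraries overlapped for all 10 genes, and none of the 5 genes with enough counts for a test passed it. The largest differences lay between single libraries, and they took 3 forms. Ttr, an epithelial gene, was 10.1-fold higher in sIVs 4 than in the next library. The melanin enzyme genes Tyr, Tyrp1 and Dct and the melanosome genes Pmel and Mlana were high in sIVs 4, sIVs 5 and PBS 5 alike, so that both groups held high and low libraries. Mitf, the regulator, was even across 7 libraries and more than 3-fold higher in PBS 4.

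**Figure D2:**
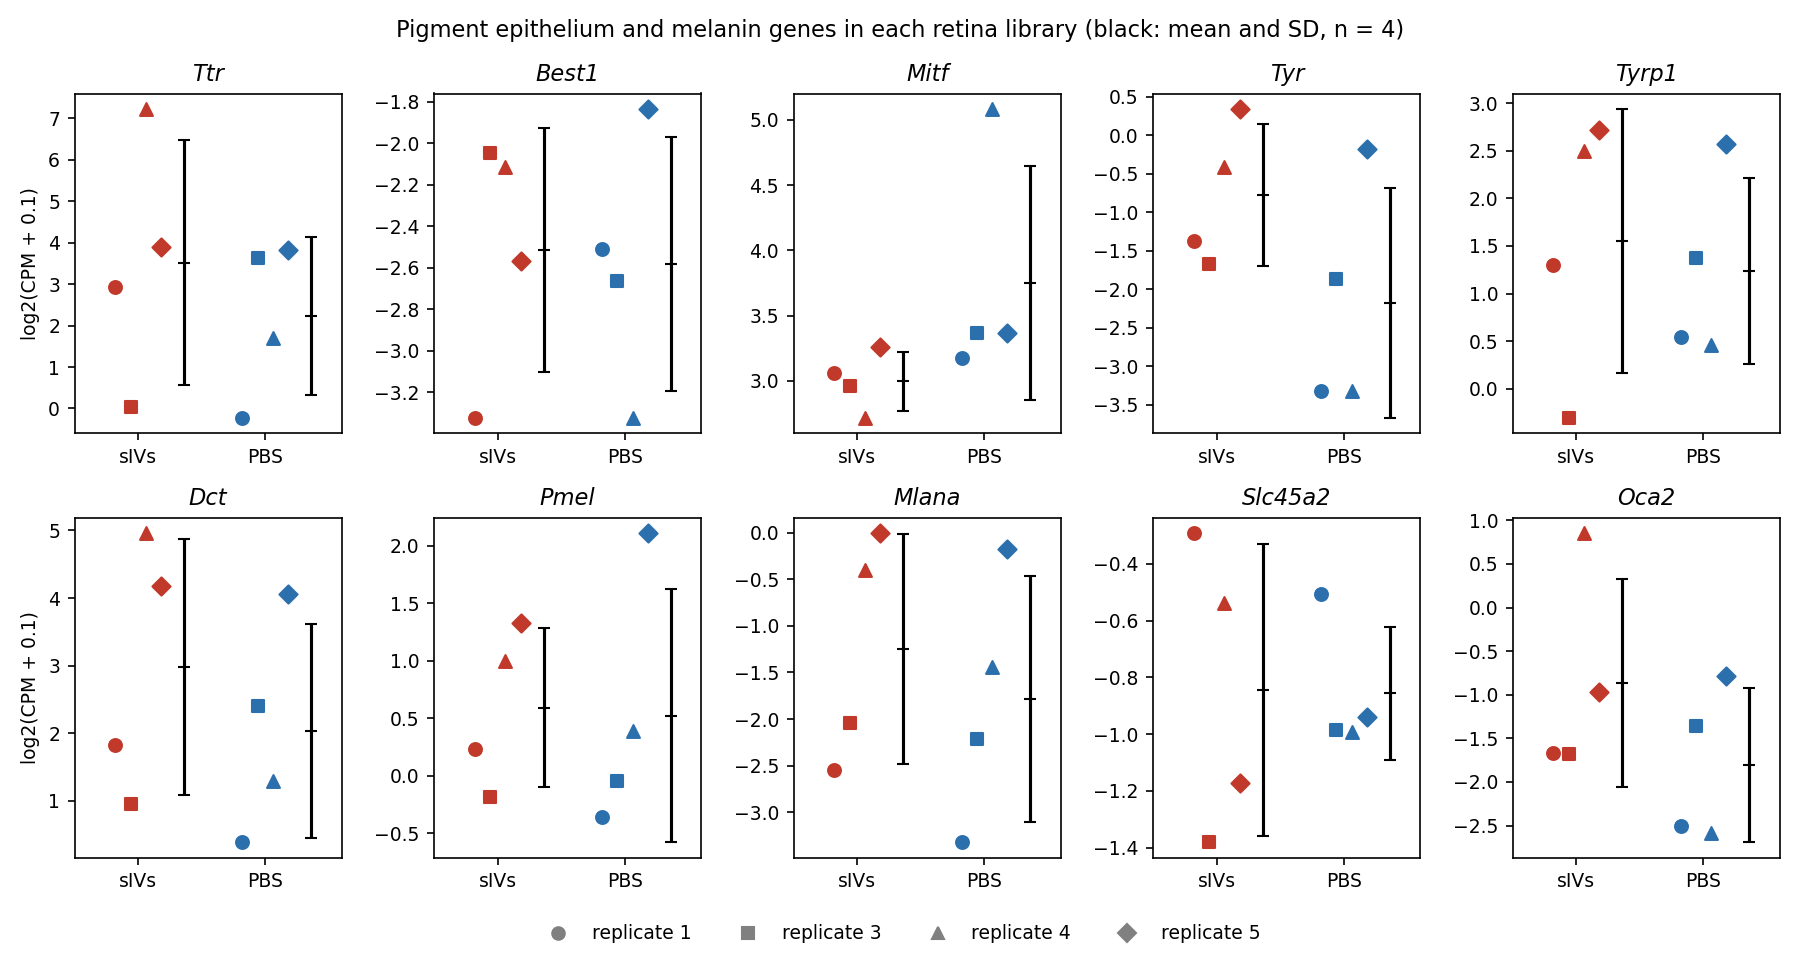
Level of each of the 10 genes as log2(CPM + 0.1) on the vertical axis, with a scale of its own in each panel, 1 symbol per library and the symbol shape giving the replicate number; black bars are the mean and SD of the 4 libraries of a group. The 2 groups overlap in all 10 panels, with Ttr highest in sIVs 4 at 150.0 CPM and Mitf highest in PBS 4 at 33.8 CPM.

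Per unit of length, Ttr had the highest median over the 8 libraries, at 7.97 fragments per kilobase of gene length, scaled to library total (FPKM). Mitf followed at 1.45, Tyrp1 at 0.841, Dct at 0.720 and Pmel at 0.489 FPKM. Mlana had a median of 0.324, Slc45a2 of 0.136, Oca2 of 0.0624, Tyr of 0.0344 and Best1 of 0.0329 FPKM. Neighbours in this order were not well separated. Ttr lay above Mitf in 5 of 8 libraries, Mitf above Tyrp1 in 5, Tyrp1 above Dct in 3 and Dct above Pmel in 5. Pmel lay above Mlana in 6, Mlana above Slc45a2 in 6, Slc45a2 above Oca2 in 7, Oca2 above Tyr in 7 and Tyr above Best1 in 4.

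Ttr (ENSMUSG00000061808, mm10 chromosome 18, 20665250 to 20674324, plus strand) stood at 7.52, 0.923, 150.0 and 14.8 CPM in sIVs retinas and at 0.756, 12.3, 3.16 and 14.1 CPM in PBS retinas. The sIVs 4 library was 10.1-fold above the next, sIVs 5, and 198-fold above the lowest, PBS 1, with 2290 counts in sIVs 4 against 10 in PBS 1. Of all genes tested, 2.53% were at least 2-fold above the next library in sIVs 4. Without sIVs 4 the libraries of both groups covered nearly the same range, with a low pair in sIVs 3 and PBS 1. Group means were 43.3 ± 71.3 CPM in sIVs retinas and 7.57 ± 6.59 CPM in PBS retinas (SD, n = 4 each). The log2 difference, sIVs over PBS, was 2.50 ± 1.31 (SE; edgeR quasi-likelihood test, unadjusted p = 0.087, adjusted p = 0.81), and without sIVs 4 it was 0.02 ± 0.93 (unadjusted p = 0.982). In bulk tissue, more cells of a type and more RNA per cell cannot be told apart.

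Best1, whose product bestrophin-1 is a chloride channel of the basal pigment epithelium, was at the limit of detection. It had 0, 2, 2 and 1 counts in sIVs retinas and 1, 1, 0 and 3 counts in PBS retinas. A count of 0 allowed up to 3 counts, which is 0.215 CPM in sIVs 1 and 0.201 CPM in PBS 4. At this depth Best1 (mm10 chromosome 19, 9985174 to 10001633, minus strand) did not tell the libraries apart. Floors and intervals of this kind cover counting error only.

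Of the other epithelial genes, a list of 20 without the 10, Rpe65 and Rgr were spread over the libraries much like Ttr. Rpe65, the isomerase that regenerates the visual chromophore, had 4.01, 0.284, 60.2 and 4.13 CPM in sIVs retinas and 0.227, 3.88, 0.941 and 3.97 CPM in PBS retinas. The ratio of Ttr to Rpe65 CPM was 1.88, 3.25, 2.49 and 3.58 in sIVs retinas and 3.33, 3.16, 3.36 and 3.55 in PBS retinas. Across a 198-fold span of Ttr that ratio thus moved 1.91-fold, but the low end of the span rested on few reads. In PBS 1, Rpe65 was level with the floor of 3 counts, 0.226 CPM, beside 10 counts of Ttr. In sIVs 3, Rpe65 was little above its floor of 0.213 CPM, beside 13 counts of Ttr. Counting error leaves both of these ratios uncertain. Rgr, a light-sensitive opsin of these cells, had 16.7, 3.98, 153 and 20.4 CPM in sIVs retinas and 2.72, 14.2, 4.43 and 13.2 CPM in PBS retinas. Other genes shared the peak in sIVs 4. There the retinol dehydrogenase gene Rdh5 stood at 41.4 CPM against 2.89 to 6.02 elsewhere, and the retinol acyltransferase gene Lrat at 14.1 against 1.07 to 3.13. The lactate transporter gene Slc16a8 stood at 35.0 against 1.70 to 4.44. Outside sIVs 4, Ttr ranged from 0.756 to 14.8 CPM, a wider span than that of Rdh5, Lrat or Slc16a8. By mean absolute difference of centred log2 CPM over 8 libraries, the 3 genes nearest to Ttr among 13783 protein-coding genes were Rpe65 (0.25), Rgr (0.65) and Trf, which encodes transferrin (0.72), while the median gene was at 1.77. These are descriptions of 8 libraries that share the outlying sIVs 4. The value for Rpe65 also includes PBS 1 and sIVs 3, where its counts were few.

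**Figure D3:**
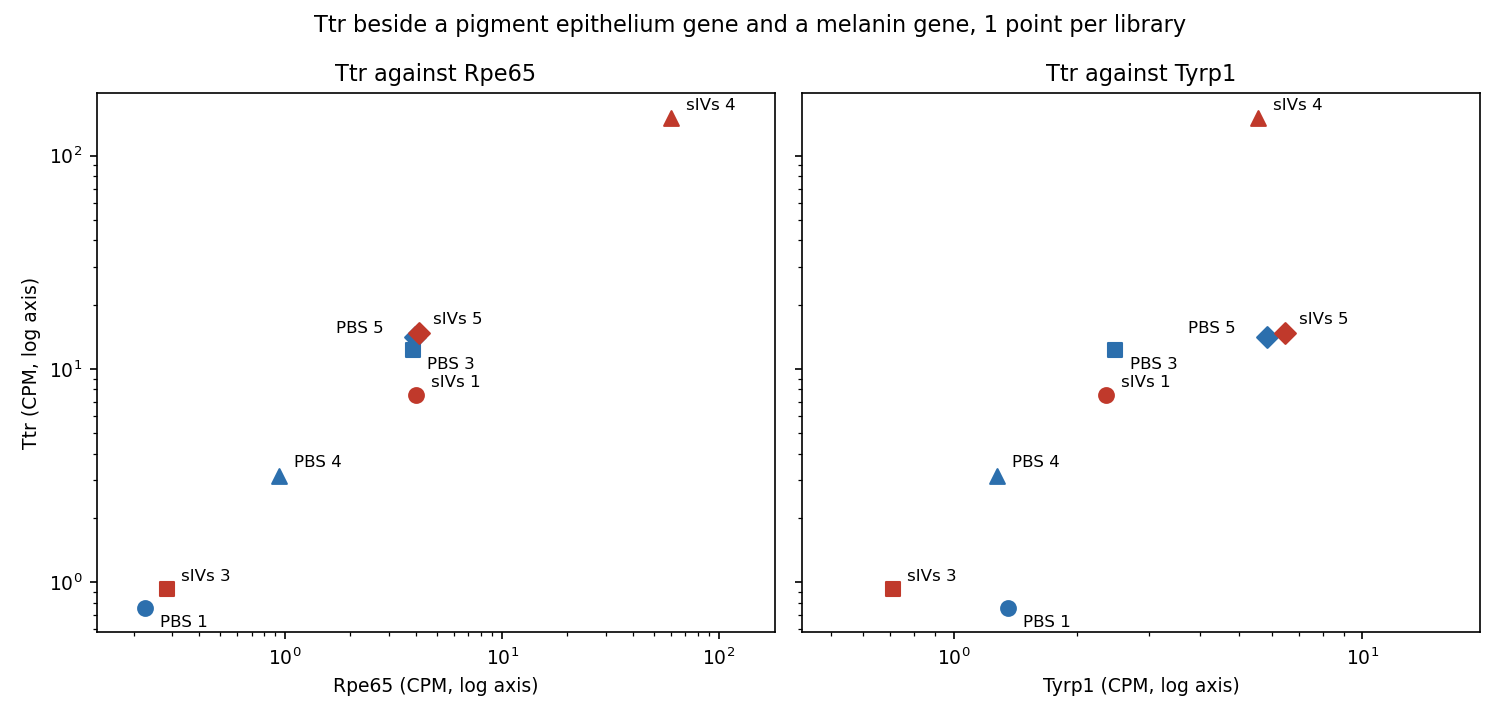
Ttr (vertical axis, CPM, log scale) against Rpe65 on the left and Tyrp1 on the right (horizontal axes, CPM, log scale), 1 labelled point per library, sIVs in red and PBS in blue. The points lie along a line for Rpe65, up to 60.2 CPM in sIVs 4, whereas sIVs 4 lies level with sIVs 5 and PBS 5 for Tyrp1, between 5.57 and 6.46 CPM.

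Among the 18 of these 20 epithelial genes that passed the count filter, 0 passed the test at an adjusted p of 0.05. Their log2 differences were above 0 in 14 and below 0 in 4, with a median of 0.87, beside 0.01 over all genes tested. Without sIVs 4 they were above 0 in 8 of 18, with a median of -0.033. Of the 18, 15 were highest in sIVs 4, as were 35.7% of all genes tested. Their summed level was 318, 295, 720 and 338 CPM in sIVs retinas and 240, 358, 280 and 374 CPM in PBS retinas, and no member of the list was at 0 in all libraries. The smallest p values belonged to the anion exchanger gene Slc26a7, at 3.66 ± 2.65 CPM in sIVs and 1.54 ± 0.480 CPM in PBS retinas, then Slc16a8, at 11.4 ± 15.8 CPM in sIVs and 2.67 ± 0.759 CPM in PBS retinas, and Rgr, at 48.4 ± 69.9 CPM in sIVs and 8.63 ± 5.89 CPM in PBS retinas (SD, n = 4 each; edgeR adjusted p = 0.81 for each). These differences were smaller without sIVs 4: the log2 difference was 1.24 for Slc26a7, 2.09 for Slc16a8 and 2.48 for Rgr with all libraries, and 0.60, 0.38 and 0.65 without sIVs 4. For Rpe65, Rdh5 and Lrat it was 2.90, 1.62 and 1.17 with all libraries, and 0.29, -0.065 and -0.43 without sIVs 4. Mertk, the receptor for shed outer segments and 4336 bases long, was lowest in sIVs 4, at 7.99 CPM against 9.15 to 16.7 CPM elsewhere.

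The median log2 ratio of a length class does not bound single genes, so both are given side by side for sIVs 4. Ttr belonged to the shortest length class, whose median log2 ratio was 0.55 in sIVs 4, and its own ratio was 4.23. Rgr and Dct belonged to class 4 of 5, whose median was -0.18, and their own ratios were 3.49 and 3.00. Among long genes of the melanosome list, sIVs 4 held the lowest levels: the copper pump gene Atp7a stood at 1.38 CPM against 11.7 to 20.3, and Lyst, a gene of lysosome-related organelles, at 55.1 against 86.1 to 153 CPM. The log2 ratio of Atp7a was -3.22, in the longest class, whose median was -0.51. How far the length shift enters each value was not tested.

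The melanin enzymes are tyrosinase, which starts the pathway from tyrosine, and the tyrosinase-related proteins that Tyrp1 and Dct encode, of which Dct makes the dopachrome tautomerase. MITF binds an element known as the M-box in promoters of pigment genes, and its core, TCATGTG, is called the motif below. Only these letters were searched for, on both strands of the 250 bases before each RefSeq gene start (GRCm38.p6). Of the 10 genes, 6 had such a window, 8 windows in all since Mitf has 3. The motif was present in the windows of Tyr, Tyrp1 and Dct, and in 3.25% of all 32851 windows. The related E-box CACGTG, which reads the same on both strands, was in no window of the 10 genes and in 6.02% of all windows. The matches are shown because they are the sequence feature that the 3 enzyme genes share, with the motif in capitals, 10 flanking bases on each side, 5′ to 3′ on the strand that carries the motif.
Tyr, chr7:87493518-87493544, minus strand: aaaaagttagTCATGTGctttgcagaa
Tyrp1, chr4:80834156-80834182, plus strand: ggggagggagTCATGTGctgcctagta
Dct, chr14:118052381-118052407, minus strand: gcacttagggTCATGTGctaacaaaga
Dct, chr14:118052462-118052488, plus strand: tttattgggcTCATGTGtcccagccaa
The motif began 22 bases before the RefSeq start in Tyr, 47 in Tyrp1, and 151 and 232 in Dct, where the more distant copy lies on the strand opposite to the gene. The RefSeq start of Tyrp1 lies downstream of the gene start in the count table, so that 90 bases of its window, the motif among them, fall inside the gene as that table draws it. These matches describe letters, not bound sites. The full windows of Tyr and Dct, on the strand of each gene and with each motif in capitals (CACATGA where it is on the opposite strand), were as follows.
Tyr, chr7:87493513-87493762, minus strand: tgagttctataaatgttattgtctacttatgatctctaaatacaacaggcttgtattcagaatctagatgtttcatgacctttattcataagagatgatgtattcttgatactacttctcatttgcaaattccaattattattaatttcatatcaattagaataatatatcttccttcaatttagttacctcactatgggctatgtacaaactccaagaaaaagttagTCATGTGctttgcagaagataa
Dct, chr14:118052247-118052496, minus strand: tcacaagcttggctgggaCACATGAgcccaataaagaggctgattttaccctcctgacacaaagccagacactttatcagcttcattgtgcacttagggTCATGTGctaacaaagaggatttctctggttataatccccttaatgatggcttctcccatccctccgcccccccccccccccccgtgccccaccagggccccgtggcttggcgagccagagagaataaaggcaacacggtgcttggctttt

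Dct (ENSMUSG00000022129, chromosome 14, 118012790 to 118052244, minus strand) stood at 3.44, 1.85, 30.9 and 17.9 CPM in sIVs retinas and at 1.21, 5.21, 2.35 and 16.6 CPM in PBS retinas. Its 3 high libraries were sIVs 4, sIVs 5 and PBS 5, with sIVs 4 1.72-fold above sIVs 5. Means were 13.5 ± 13.7 CPM in sIVs and 6.33 ± 7.02 CPM in PBS retinas (SD, n = 4 each), and the log2 difference was 1.09 ± 0.95 (SE; edgeR adjusted p = 0.81). It was 0.28 without sIVs 4 and 2.19 without PBS 5.

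Tyrp1 (ENSMUSG00000005994, chromosome 4, 80834123 to 80851719, plus strand) stood at 2.36, 0.710, 5.57 and 6.46 CPM in sIVs retinas and at 1.36, 2.49, 1.28 and 5.84 CPM in PBS retinas. The 3 high libraries were those of Dct but not in its order, and their 95% counting intervals overlapped, at 4.44 to 6.87 CPM in sIVs 4, 5.21 to 7.89 CPM in sIVs 5 and 4.72 to 7.11 CPM in PBS 5. Means were 3.78 ± 2.70 CPM in sIVs and 2.74 ± 2.14 CPM in PBS retinas (SD, n = 4 each), and the log2 difference was 0.45 ± 0.68 (SE; edgeR adjusted p = 0.841). For Tyrp1 it was 0.20 without sIVs 4, 0.068 without sIVs 5, 0.24 without PBS 1, 0.22 without PBS 4, 0.80 without sIVs 3 and 1.13 without PBS 5. Tyr (chromosome 7, 87424771 to 87493512, minus strand) was too low for the test, with 4, 3, 10 and 17 counts in sIVs retinas and 0, 3, 0 and 13 counts in PBS retinas. Its 3 highest counts were in the libraries that were high for Tyrp1.

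Pmel and Mlana encode structural and sorting proteins of the melanosome; Pmel forms the fibrils on which melanin is laid down. Pmel (ENSMUSG00000025359, chromosome 10, 128704195 to 128720238, plus strand) stood at 1.07, 0.781, 1.90 and 2.41 CPM in sIVs retinas and at 0.680, 0.868, 1.21 and 4.21 CPM in PBS retinas. PBS 5 was highest and sIVs 5 next. Means were 1.54 ± 0.746 CPM in sIVs and 1.74 ± 1.66 CPM in PBS retinas (SD, n = 4 each), and the log2 difference was -0.18 ± 0.61 (SE; edgeR adjusted p = 0.926), or 0.74 without PBS 5 and -0.30 without sIVs 4. Pmel overlaps Dgka and Cdk2 on the opposite strand, both with counts, and the sources used here do not give whether counting used strand, so its level is uncertain. Mlana (chromosome 19, 29697921 to 29708448, plus strand) had 1, 2, 10 and 13 counts in sIVs retinas and 0, 2, 4 and 13 counts in PBS retinas, and was too low for the test.

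The transporter genes Slc45a2 and Oca2, whose products set the ion balance and pH of the melanosome, were also below the filter and differed from each other. Oca2 (chromosome 7, 56239760 to 56536518, plus strand) had 3, 3, 26 and 6 counts in sIVs retinas and 1, 5, 1 and 8 counts in PBS retinas. Its CPM in sIVs 4 were 3.54 times those of the next library, with a 95% counting interval of the ratio of 1.55 to 9.04. Slc45a2 (chromosome 15, 11000721 to 11029233, plus strand) had 10, 4, 9 and 5 counts in sIVs retinas and 8, 7, 6 and 7 counts in PBS retinas. It alone of the 7 melanin genes did not have sIVs 4, sIVs 5 and PBS 5 as its 3 highest libraries. Its counts, 56 over all libraries, were too few to order the libraries. Oca2, Tyr and Mlana had no more, at 53, 50 and 45, and Oca2 had 6 counts in sIVs 5 beside 5 in PBS 3.

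Mitf (ENSMUSG00000035158, chromosome 6, 97807052 to 98021349, plus strand) stood at 8.24, 7.67, 6.48 and 9.49 CPM in sIVs retinas and at 8.92, 10.2, 33.8 and 10.2 CPM in PBS retinas. Of these values 7 lay between 6.48 and 10.2 CPM, while PBS 4, with 503 counts, was 3.30-fold above the next library. In sIVs 4, where Ttr and Dct peaked, Mitf had its lowest value. Its 95% counting interval there, 5.26 to 7.88 CPM, overlapped those of sIVs 1 and sIVs 3, from 6.79 and 6.28 CPM up. Mitf belonged to length class 4 of 5, whose median log2 ratio in sIVs 4 was -0.18, and its own ratio was -0.52. Means were 7.97 ± 1.25 CPM in sIVs and 15.8 ± 12.0 CPM in PBS retinas (SD, n = 4 each), and the log2 difference was -0.99 ± 0.43 (SE; edgeR unadjusted p = 0.0449, adjusted p = 0.81). Without PBS 4 it was -0.30 ± 0.19 (unadjusted p = 0.155). Mitf was the only gene of the 17004 tested (0.00588%) that was 3-fold or more above the next library in PBS 4, a fold chosen after its values were seen. Itgae and Asprv1 were 2.05-fold and 2.00-fold above, and the other genes less than 2-fold, so 0.0176% of genes reached 2-fold.

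The neighbours of Mitf on chromosome 6 did not share its level in PBS 4: the ratio of that library to the median of the other 7 was 0.983 for Frmd4b, 1.02 for Arl6ip5 and 1.05 for Foxp1, against 3.79 for Mitf. Mast cells also use MITF. Their genes Cma1, Mcpt4, Tpsb2 and Fcer1a had 0 counts in all 8 libraries, while Cpa3 had at most 2. The cause of the Mitf level in PBS 4 was not tested. The genes nearest to the Mitf profile, Catsperg1 (0.25), Dnah8 (0.29) and Zfp981 (0.32, beside 0.49 for the median gene), reached only 3.16, 3.36 and 1.55 CPM in PBS 4. Mitf has several start sites, 3 of them in the RefSeq windows, and gene counts do not tell its isoforms apart. Of its relatives and regulators, a list of 11, 9 were tested and 0 passed, 5 with a log2 difference above 0 and 4 below. Zeb2, a transcriptional repressor gene, stood at 86.9 ± 17.2 CPM in sIVs and 107 ± 16.0 CPM in PBS retinas. The MITF relative Tfeb stood at 13.6 ± 3.94 CPM in sIVs and 11.5 ± 1.06 CPM in PBS retinas, and Otx2, which specifies pigment epithelium and photoreceptors, at 241 ± 16.1 CPM in sIVs and 222 ± 15.6 CPM in PBS retinas (SD, n = 4 each).

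Across all genes tested, edgeR called 0 of 17004 at an adjusted p of 0.05 (0.0%), and 0 of the 5 pigment genes that passed the count filter. At an unadjusted p under 0.05, 1.04% of genes were higher and 0.459% lower in sIVs retinas. Mitf was among the lower ones, and no pigment gene was among the higher. DESeq2 called 0 genes as well, with 322 at an unadjusted p under 0.05 against 255 in edgeR. The groups of all 10 pigment genes overlapped. Among genes tested, 1.08% had every sIVs library above every PBS library and 0.929% every one below. Log2 differences were above 0 for 3 of the 5 tested pigment genes and for 51.3% of all genes, and the median of the 5 was 0.45 beside 0.01. That median describes only genes that passed the filter. It was 0.02 without sIVs 4 and 1.13 without PBS 5.

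**Figure D4:**
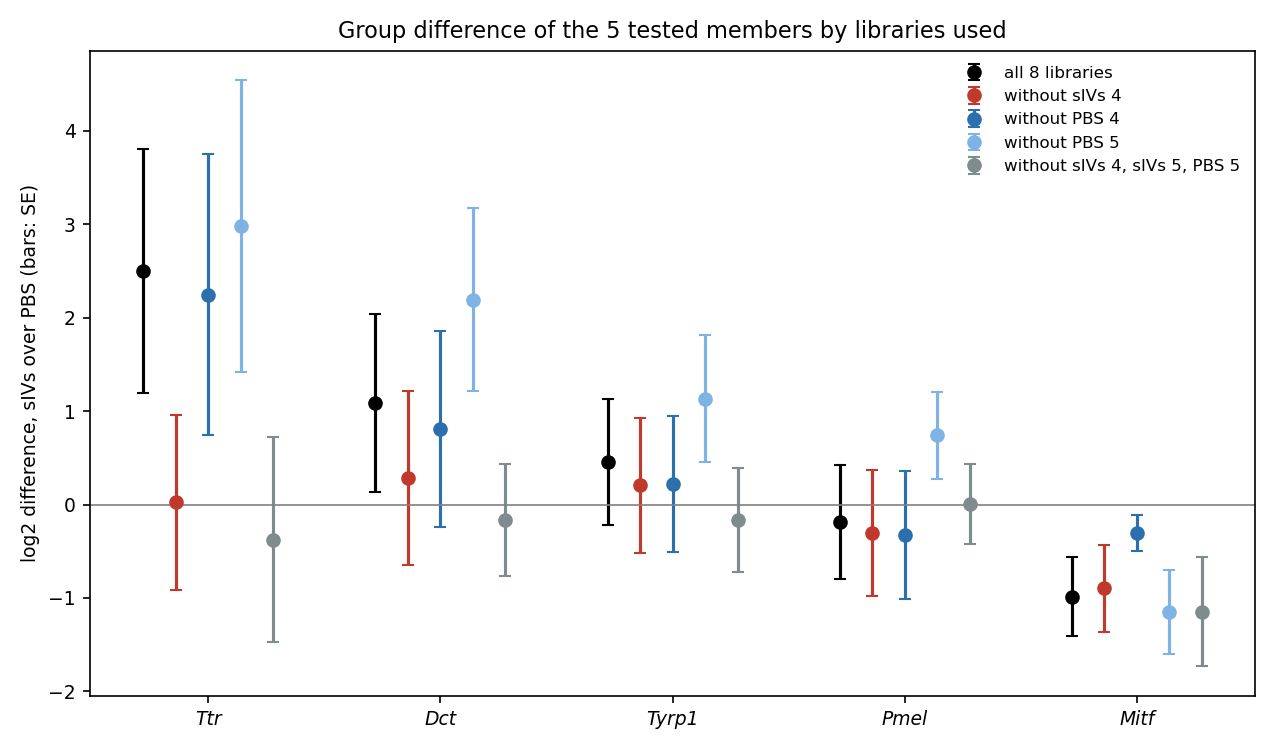
Log2 difference, sIVs over PBS, of the 5 tested pigment genes (vertical axis; points are edgeR estimates and bars their SE), with all 8 libraries and with single libraries or 3 libraries left out. Ttr moves from 2.50 with all libraries to 0.02 without sIVs 4, and Mitf from -0.99 to -0.30 without PBS 4.

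By library, 7 of the 10 genes had sIVs 4, sIVs 5 and PBS 5 as their 3 highest libraries: Ttr, Tyr, Tyrp1, Dct, Pmel, Mlana and Oca2. Of the tested ones this held for 4 of 5, and for 8.32% of all genes tested. Tyr, Mlana and Oca2 had only 50, 45 and 53 counts over all libraries, so their place among the 7 is uncertain. Tyr, Tyrp1, Pmel and Mlana had both libraries numbered 5 above the other 6, as did 4.33% of genes tested. Ttr, Dct and Oca2 were highest in sIVs 4. The order within the 3 high libraries thus differed between pigment genes, but not always beyond counting error. For Tyr, Tyrp1 and Mlana the 95% counting intervals of these libraries overlapped. For Ttr, Dct and Oca2 the interval of sIVs 4 lay above those of sIVs 5 and PBS 5. For Pmel the interval of PBS 5 lay above that of sIVs 4. The counts of the 7 melanin genes together came to 8.17, 4.19, 42.0 and 29.6 CPM in sIVs retinas and 3.93, 9.55, 5.58 and 29.1 CPM in PBS retinas, which overlap. Dct supplied most of that sum in sIVs 4, at 30.9 of 42.0 CPM.

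Of 3 ratios to Tyrp1 within a library, those of Ttr and Dct separated sIVs 4 from the other 7 libraries and that of Pmel did not. Ttr over Tyrp1, in FPKM, was 7.38, 3.02, 62.5 and 5.31 in sIVs retinas and 1.29, 11.4, 5.74 and 5.60 in PBS retinas, so sIVs 4 was far above the other 7. Dct over Tyrp1 in FPKM was 2.66 in sIVs 4 and at most 1.36 elsewhere. Pmel over Tyrp1 in FPKM was 0.561, 1.36, 0.421 and 0.459 in sIVs retinas and 0.617, 0.430, 1.17 and 0.890 in PBS retinas, so sIVs 4 lay beside PBS 3 and sIVs 5. In sIVs 4 the epithelial gene Ttr was thus high relative to Tyrp1, and in sIVs 5 and PBS 5 the same ratio lay among those of the other libraries.

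Most tested markers of the ciliary body and iris were highest in sIVs 5 and PBS 5, though not the most abundant one, Cp. Of 11 genes in that list 9 were tested, 0 passed, 4 differences were above 0 and 5 below (median -0.01). Of the 9, 6 had both libraries numbered 5 above the other 6, beside 4.33% of all genes tested. The summed level of the list was 463, 663, 633 and 861 CPM in sIVs retinas and 404, 955, 630 and 1031 CPM in PBS retinas, with PBS 3 above sIVs 5. No gene of the list was at 0 in all libraries. Optc, which encodes the vitreous protein opticin made by the ciliary epithelium, stood at 1.72, 1.70, 2.62 and 24.6 CPM in sIVs retinas and at 1.21, 2.66, 3.49 and 31.7 CPM in PBS retinas. The signal gene Bmp4 stood at 0.788, 0.355, 2.10 and 4.88 CPM in sIVs retinas and at 0.151, 0.463, 0.202 and 4.87 CPM in PBS retinas. Otx1, a transcription factor of the ciliary margin, stood at 5.64 CPM in sIVs 5 and 4.09 CPM in PBS 5 against at most 0.605 elsewhere. Cp, which encodes ceruloplasmin and is also made by Mueller glia, stood at 197, 464, 423 and 594 CPM in sIVs retinas and at 132, 779, 417 and 773 CPM in PBS retinas, with PBS 3 highest. The part of these tissues in the pigment gene levels was not tested. The labels do not say what a shared replicate number means.

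Stromal genes of choroid and sclera showed the same pair of libraries. Of 10 genes 8 were tested and 0 passed. Both libraries numbered 5 were on top for 5 of the 8, beside 4.33% of all genes tested. Sums of the list were 70.4, 94.0, 96.7 and 156 CPM in sIVs retinas and 68.0, 93.6, 83.7 and 145 CPM in PBS retinas. Fmod, a collagen-binding proteoglycan gene, reached 21.7 CPM in sIVs 5 and 25.2 CPM in PBS 5 against at most 6.38 elsewhere, and the fibrillar collagen gene Col1a1 reached 12.4 and 9.45 CPM in those libraries against at most 2.20. Col3a1 was at 5.24 ± 5.87 CPM in sIVs and 3.79 ± 3.79 CPM in PBS retinas, Col6a1 at 41.8 ± 6.33 CPM in sIVs and 44.3 ± 6.17 CPM in PBS retinas, and Mgp, an inhibitor of calcification, at 11.3 ± 6.39 CPM in sIVs and 5.81 ± 1.18 CPM in PBS retinas (SD, n = 4 each). The log2 difference of Mgp was 0.96 with all libraries and 0.52 without sIVs 4.

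**Figure D5:**
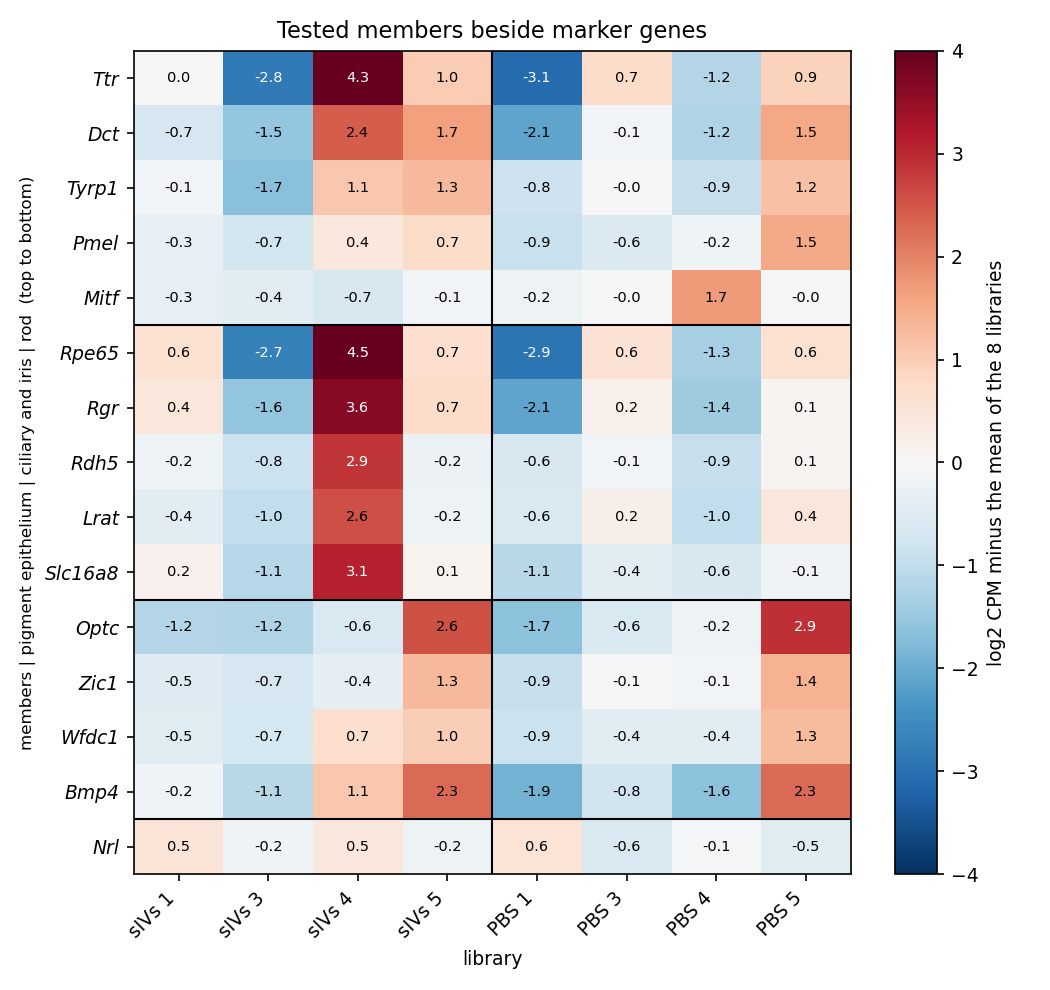
Log2 CPM minus the mean of the 8 libraries (colour and printed value) for the 5 tested pigment genes and marker genes of pigment epithelium, ciliary body and iris, and rods; libraries run across, sIVs left of PBS. Ttr and Rpe65 are highest in sIVs 4, Optc and Zic1 in sIVs 5 and PBS 5, and Dct and Tyrp1 in all 3.

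The genes whose profile was nearest to the median profile of the 5 tested pigment genes were Fbln2, Wfdc1, Prtn3, Sod3, Slc39a12, Cnn2, Metrnl and Aif1, with mean absolute log2 differences of 0.19 for Fbln2 to 0.39 for Aif1 over 8 libraries, beside 0.87 for the median of 13783 genes. Over the 7 libraries without sIVs 4 they were Fbln2 (0.20), Zic1, Wfdc1, Sod3 and Clec18a (0.31), beside 0.86 for the median gene. Fbln2, which encodes the matrix protein fibulin-2, stood at 1.15, 0.497, 2.68 and 4.19 CPM in sIVs retinas and at 1.06, 1.39, 0.672 and 3.55 CPM in PBS retinas. Wfdc1, a secreted-protein gene of the ciliary list, stood at 4.01, 3.41, 8.97 and 11.1 CPM in sIVs retinas and at 3.02, 4.11, 4.17 and 13.7 CPM in PBS retinas. Zic1, a zinc-finger factor of the same list, reached 23.3 CPM in sIVs 5 and 24.9 CPM in PBS 5 against at most 8.91 elsewhere. Clec18a, a lectin gene, reached 6.33 and 5.30 CPM in those libraries against at most 2.95.

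The other genes of that set were Sod3, the extracellular superoxide dismutase gene, Slc39a12, a zinc transporter gene, Cnn2, a calponin gene, the secreted-factor gene Metrnl, the protease gene Prtn3 and Aif1, a gene of microglia. None of these neighbours in profile passed the test between groups.

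Single genes had nearest profiles of their own. For Dct these were Ptgds, which encodes prostaglandin D synthase, Cldn1, a tight junction gene, and Mfrp, a membrane protein gene of pigment epithelium and ciliary body. Ptgds stood at 25.7, 25.5, 254 and 230 CPM in sIVs retinas and at 10.4, 47.9, 47.1 and 244 CPM in PBS retinas, with the same 3 libraries high as for Dct. For Tyrp1 they were Fbln2, Mfrp and Slc39a12, and for Pmel Wfdc1, Nbl1 and Sod3.

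Other melanosome genes, needed also by lysosome-related organelles outside pigment cells, had group differences on both sides of 0. Of 28, 27 were tested and 0 passed, with 13 differences above 0 and 14 below (median -0.01). Both libraries numbered 5 lay above the other 6 for 4 of the 27, beside 4.33% of all genes tested, and 8 of the 27 were highest in sIVs 4, beside 35.7%. Their sums were 1270 to 1812 CPM in sIVs and 1665 to 1866 CPM in PBS retinas. Gpr143, a receptor gene of pigment cells that is mutated in ocular albinism, was below the filter, at 1.51 CPM in sIVs 4 against at most 0.430 elsewhere. Slc24a5, an ion exchanger gene of the melanosome, was at 4.52 ± 1.92 CPM in sIVs and 5.71 ± 0.612 CPM in PBS retinas. Gpnmb, a relative of Pmel that macrophages share, was at 23.1 ± 13.8 CPM in sIVs and 24.4 ± 14.5 CPM in PBS retinas. The melanosome transport genes Rab27a, at 11.0 ± 2.40 CPM in sIVs and 8.88 ± 0.962 CPM in PBS retinas, and Myo5a, at 255 ± 75.2 CPM in sIVs and 320 ± 14.8 CPM in PBS retinas, and the trafficking gene Hps4, at 43.0 ± 4.16 CPM in sIVs and 37.1 ± 6.39 CPM in PBS retinas, had the smallest p values of the list (SD, n = 4 each; edgeR adjusted p = 0.81 for each).

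Markers of melanocytes, the crest-derived pigment cells of the choroid, formed a list of their own. Of 8 genes 5 were tested, 0 passed, and the sums were 36.4 to 48.6 CPM in sIVs and 36.8 to 46.1 CPM in PBS retinas. Pax3 had no count in any library. Sox10, the crest factor upstream of Mitf in melanocytes, was below the filter, at 1.44 CPM in sIVs 4 and at most 0.602 elsewhere. Mc1r, the melanocortin receptor gene, was at 6.19 ± 2.57 CPM in sIVs and 4.37 ± 1.73 CPM in PBS retinas. Kit, a growth factor receptor gene that retinal neurons also express, was at 10.1 ± 0.771 CPM in sIVs and 12.3 ± 2.00 CPM in PBS retinas, and Erbb3 at 1.91 ± 0.381 CPM in sIVs and 1.44 ± 0.770 CPM in PBS retinas (SD, n = 4 each).

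The remaining lists mark what else a dissection can hold, and 0 of their tested genes passed. Choroid plexus genes were included because that brain epithelium is rich in Ttr: all 7 were tested, with 5 differences above 0 and 2 below, and their sums were 107 to 144 CPM in sIVs and 110 to 125 CPM in PBS retinas. Of that list Folr1, Kcne2 and Prlr had the smallest p values. Of 9 lens genes only Bfsp2 and Cryab, which glia also express, were tested. All 8 endothelial genes, led by Cldn5, Emcn and Pecam1, were tested, with sums of 353 to 508 CPM in sIVs and 315 to 600 CPM in PBS retinas. All 10 microglia genes, led by P2ry12, Ctss and Csf1r, had log2 differences above 0, with a median of 0.55 (0.26 without sIVs 4, 9 of 10 above 0). Beside this, 51.3% of all genes tested were above 0, with a median of 0.01. Sums of the microglia list were 135 to 373 CPM in sIVs and 40.8 to 287 CPM in PBS retinas. Of 5 red blood cell genes 4 were tested, with a median log2 difference of 1.22 (0.67 without sIVs 4) and sums of 9.37 to 26.7 CPM in sIVs and 5.24 to 9.14 CPM in PBS retinas; Hbb-bs, Hbb-bt and Hba-a1 led, and their split among near-identical copies is uncertain. All 9 rod genes, led by Sag, Rom1 and Cnga1, were tested, with sums of 21727 to 33293 CPM in sIVs and 18496 to 32368 CPM in PBS retinas, and Nrl, the rod factor, was at 1717 ± 457 CPM in sIVs and 1424 ± 560 CPM in PBS retinas (SD, n = 4 each). All 8 Mueller glia genes, led by Apoe, Rlbp1 and Kcnj10, were tested, with sums of 3861 to 6082 CPM in sIVs and 3803 to 4825 CPM in PBS retinas. In sIVs 4, where Ttr, Dct and Oca2 were highest, the sums of the pigment epithelium, melanocyte, choroid plexus, lens, microglia, red blood cell and Mueller glia lists were each the highest of the 8 libraries, and their part in the pigment gene levels was not tested.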

How the data were processed

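The libraries were made from poly(A)-selected RNA with a protocol that marks strand and read as 150 bp pairs, per the labels. Whole-number read counts for each gene and FPKM values, scaled for gene length and library total, were deposited by the authors; the build was mm10, per the submitters' processing notes, and the sources used here give no aligner, counter or strand setting. Genes passing filterByExpr (17004 of 54532, of which 5 are pigment genes) were scaled by TMM and tested with the two-sided quasi-likelihood F test of edgeR 4.0.16 in R 4.3.3, group being the only term, with Benjamini-Hochberg adjustment over all genes at 0.05. The SE is the absolute log2 difference divided by the square root of F, so it is approximate. CPM are counts scaled to the TMM-adjusted library size. Counting intervals are exact Poisson intervals at 95%. The test was tested on simulated data. Alternatives used DESeq2 1.42.0, limma 3.58.1, other scalings and filters, FPKM with pseudocounts 1 and 0.1, a replicate block, and libraries left out.

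The 10 genes and the 13 lists (142 genes) were chosen with earlier results of these data known, so no list has a test of its own. Named genes were the 10; fixed defining markers; in each list the 3 tested genes of smallest p with at least 1 CPM on average; and the 8 genes, or 5 without sIVs 4, nearest to the pigment gene profile. A gene that these rules name is not reported here. Genes named for single profiles, neighbours of Mitf, mast cell genes and genes called high in particular libraries were added after values were seen. Promoter sequences are from RefSeq (GRCm38.p6). Of the 10 genes, 8 have the same start and end in GENCODE M21, and Ttr and Mlana do not.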

Additional observations from a re-analysis of the deposited data

Results flagged for a closer look

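In 48 sets of 4 libraries, 6 had a highest library farther from the rest than Dixon's test allows at the 95% level. That level holds for independent, normally distributed values. The sets share libraries and genes and were chosen with earlier results known, so 6 of 48 cannot be set against a rate by chance. The Ttr level of sIVs 4 was 149.964 CPM against 14.8 CPM for the next sIVs library. The summed level of the other pigment epithelium genes was 720 CPM in the same library, against 338 CPM in the next. Oca2 also stood out in sIVs 4, at 1.70 CPM against 0.413. Mitf stood at 33.8 CPM in PBS 4 against 10.2 CPM in the next PBS library, and Pmel at 4.21 CPM in PBS 5 against 1.21. Slc45a2 stood at 0.605 CPM in PBS 1 against 0.421, which is 8 counts against 6 or 7 and within counting error.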

How the results depend on the processing

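All 20 alternatives called 0 genes and 0 pigment genes, with 106 to 927 genes at an unadjusted p under 0.05. The median log2 difference of the tested pigment genes, 0.45 in the main fit, did not keep its sign. It was -0.50 under voom quality weights, where 0 of the 5 differences were above 0, against 3 in the main fit. The median was -0.17 without sIVs 4, sIVs 5 and PBS 5, and 0.02 to 1.13 with 1 library left out. These values lay within 1.11 of 0.45. That is the within-group SD of the profile, a spread between libraries and not an error of the difference. For the 5 tested pigment genes, 87 of 99 values kept their direction, and for 54 other genes 1013 of 1071 did; the cause of the reversals was not tested. Under voom quality weights, which gave sIVs 4 a weight of 0.0913 against 0.637 to 2.74, the reversed log2 differences were Ttr -1.01, Tyrp1 -0.50, Dct -0.34, Rpe65 -0.75, Rdh5 -0.11, Lrat -0.48, Folr1 -0.20, Prlr 0.062, Cryab -0.17, Fbln2 -0.39, Wfdc1 -0.18, Prtn3 -0.13, Sod3 -0.034, Aif1 -0.65 and Clec18a -0.42. Without sIVs 4, sIVs 5 and PBS 5, an alternative chosen after seeing the data, they were Ttr -0.38, Pmel 0.0084, Tyrp1 -0.17, Dct -0.17, Tfeb -0.0055, Folr1 -0.19, Kcne2 -0.080, Cryab -0.13, Rlbp1 -0.024, Kcnj10 0.044, Lrat -0.36, Fbln2 -0.35, Wfdc1 -0.025, Prtn3 -0.22, Aif1 -0.56 and Clec18a -0.60. Pmel was 0.44 without both libraries numbered 5, also chosen after seeing the data, and 0.044 on log2(FPKM + 0.1), where Clec18a was -0.011. With 1 library left out in turn, other genes reversed in at least 1 fit, and their full range over these fits is given. It was -0.48 to 0.74 for Pmel, -0.15 to 0.018 for Col6a1, -0.71 to 1.45 for Col3a1 and -0.41 to 2.82 for Bmp4. For Optc it was -2.28 to 1.63, for Prlr -0.27 to 0.015, for Cryab -0.0014 to 0.63 and for Rdh5 -0.065 to 1.94. Lrat ranged from -0.43 to 1.49, Gpnmb from -0.40 to 0.26, Fbln2 from -0.21 to 1.03 and Wfdc1 from -0.19 to 0.87. Sod3 ranged from -0.13 to 0.80, Metrnl from -0.13 to 0.81 and Aif1 from -0.11 to 0.53. The range was -0.84 to 0.52 for Zic1 and -0.58 to 0.78 for Clec18a. Over these fits the log2 difference of Ttr was 0.02 to 2.98 and that of Mitf -1.18 to -0.30, with an unadjusted p of Mitf between 0.0235 and 0.155. With the replicate number as a block, 588 genes had an unadjusted p under 0.05 against 255 without it, Pmel was 0.021, and 0 genes were called. The deviations of same-numbered libraries had correlations of 0.596, 0.0246, 0.227 and 0.514 for numbers 1, 3, 4 and 5. Those numbered 1, 4 and 5, but not 3, were each other’s nearest library in the other group. The labels state no pairing, so the numbers entered only as this alternative and not the main fit. Without a filter on low counts, Tyr, Mlana, Slc45a2, Oca2 and Best1 entered the fit and none was called, with 10 to 56 counts for each gene over all libraries.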
